A study of Rattus norvegicus with 20 samples.

Results

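Potassium channels opened by internal calcium or sodium, together with the KCNQ channel subunit Kcnq3, were followed in rat globular bushy cells at postnatal days 3, 8 and 21 (P3, P8 and P21). The members were all probe sets whose platform annotation names exactly 1 gene out of Kcnma1, Kcnmb4, Kcnn1, Kcnn2, Kcnn3, Kcnt1, Kcnt2 and Kcnq3. Of these 8 genes, 6 had such a probe set, and they had 11 probe sets between them, out of 20832 probe sets with 1 gene and 14218 genes on the array. Kcnn2 and Kcnt2 were not analysed here.

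Globular bushy cells are excitatory neurons of the ventral cochlear nucleus whose axons end as the calyx of Held, the giant terminal on principal cells in the medial nucleus of the trapezoid body across the midline. All animals were Sprague Dawley rats whose bushy cells had been filled by cholera toxin B injected into that nucleus 24 hours before the brain was frozen. From 12 µm cryosections, 200 labelled cells per animal were cut out by laser, and the isolated RNA was amplified linearly in 2 rounds and hybridised to a 3′ expression array. The labels give 6 animals at P3, when the calyx forms, 9 at P8, with a juvenile synapse, and 5 at P21, with a mature one. Values are log2(intensity + 1), called levels below. A level depends on its own probe set, so it does not say which of 2 genes had more RNA, and differences between probe sets on an array were used only to compare ages. Each array holds the RNA of many cells, so fewer cells of a type and less RNA per cell cannot be told apart.

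These channels turn electrical activity into potassium outflow that ends or spaces action potentials. Kcnma1 encodes the pore of BK channels, which open on depolarization and calcium entry together, and Kcnmb4 encodes the neuronal BK subunit beta4, which slows their gating. Kcnn1, Kcnn2 and Kcnn3 encode the small-conductance SK channels, which sense calcium through bound calmodulin and carry part of the afterhyperpolarization. Kcnt1 (Slack) and Kcnt2 (Slick) encode channels opened by internal sodium, known in rodent auditory brainstem neurons for a part in the timing of firing. KCNQ subunits such as Kcnq3 form the slowly gating M-type channels, which need the membrane lipid PIP2 and close when receptors coupled to phospholipase C consume it.

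Kcnma1 and Kcnmb4 levels fell between P3 and P21 and a Kcnt1 probe set rose, as described below, and their upstream sequences are shown so that the BK subunits can be set beside a channel gene that went the other way. The 250 bases before each annotated start were read from the RefSeq promoter table (rat assembly GRCr8), which matched 4 of the 6 genes. They lie at chr15:351675-351924 on the plus strand for Kcnma1, at chr7:54005102-54005351 on the minus strand for Kcnmb4, and at chr3:29081089-29081338 and chr3:29095846-29096095 on the plus strand for the first and second annotated start of Kcnt1. Capitals mark GC boxes, the letters GGGCGG or their reverse complement CCGCCC.
Kcnma1: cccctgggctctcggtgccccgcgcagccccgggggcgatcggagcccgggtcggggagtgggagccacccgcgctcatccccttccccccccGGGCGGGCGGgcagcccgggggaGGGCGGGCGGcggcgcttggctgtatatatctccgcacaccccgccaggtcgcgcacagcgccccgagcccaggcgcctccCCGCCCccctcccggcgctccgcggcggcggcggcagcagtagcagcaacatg
Kcnmb4: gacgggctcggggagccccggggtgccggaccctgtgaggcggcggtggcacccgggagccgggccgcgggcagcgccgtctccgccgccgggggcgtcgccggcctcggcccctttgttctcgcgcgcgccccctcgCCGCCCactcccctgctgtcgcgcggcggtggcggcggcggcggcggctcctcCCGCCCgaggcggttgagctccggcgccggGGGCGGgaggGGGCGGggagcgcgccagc
Kcnt1, first start: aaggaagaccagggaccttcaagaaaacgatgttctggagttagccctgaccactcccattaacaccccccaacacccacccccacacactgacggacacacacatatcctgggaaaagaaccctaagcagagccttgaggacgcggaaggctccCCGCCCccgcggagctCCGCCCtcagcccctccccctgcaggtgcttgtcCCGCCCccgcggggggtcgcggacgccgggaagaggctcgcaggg
Kcnt1, second start: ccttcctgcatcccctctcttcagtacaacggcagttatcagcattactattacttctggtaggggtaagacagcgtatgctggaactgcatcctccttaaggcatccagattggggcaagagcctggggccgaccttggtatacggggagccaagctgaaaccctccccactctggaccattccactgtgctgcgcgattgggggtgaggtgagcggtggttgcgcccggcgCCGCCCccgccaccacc
With overlapping matches counted, the windows held 5 GC boxes for Kcnma1, 4 for Kcnmb4, and 3 and 1 for the first and second start of Kcnt1. A GC box on either strand was present in 30.5% of the 33465 windows of the same length. The windows were 79.6% G or C for Kcnma1, 84.4% for Kcnmb4, and 64.8% and 59.6% for Kcnt1, with a median of 51.2% over all windows. CpG steps numbered 33 for Kcnma1, 44 for Kcnmb4, and 16 and 12 for Kcnt1, with a median of 5 over all windows. An E box (CACGTG), a cyclic AMP response element (TGACGTCA) and a TATA box (TATAAA), each searched on both strands, were not among the letters of any of the 4 windows. These motifs were present in 5.59%, 1.59% and 12.9% of all windows, in that order.

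Not all P8 arrays were alike. P8 replicates 5 to 9 had a median intensity of 58.9 to 67.5 over all probe sets, against 23.8 to 32.5 on the other 15 arrays, and they were kept out of the tests and are described apart. The labels do not say what set these 5 arrays apart. The log2 difference between the 3′ and 5′ Gapdh control probe sets, a sign of RNA length, averaged 2.91 ± 0.27 at P3 (SD, n = 6), 3.27 ± 0.42 in P8 replicates 1 to 4 (n = 4), 2.19 ± 0.33 in P8 replicates 5 to 9 (n = 5) and 3.99 ± 0.66 at P21 (n = 5). It was thus highest at P21, and its part in the results below was not tested. Of 9 tested markers of bushy and other excitatory auditory neurons, 8 were higher at P21 than at P3. Slc17a6, the vesicular glutamate transporter 2 gene, was high on the 15 arrays. Its mean levels were 11.1 at P3, 11.5 in P8 replicates 1 to 4 and 11.3 at P21. The 9 markers had a summed intensity of 11500 to 17460 at P21, against 5277 to 5715 at P3. Oligodendrocyte markers moved with age as well. All 7 tested were higher at P21 than at P3, and their summed intensity spanned 264 to 894 at P3, 2537 to 4542 in P8 replicates 1 to 4 and 4287 to 6027 at P21. Both tested markers of inhibitory neurons were lower at P21 than at P3 (Gad1 averaged 8.42 at P21 and 9.42 at P3), and the glycine transporter gene Slc6a5 stayed under a mean level of 4 at each age. The summed intensity of inhibitory markers was 292 to 784 at P21, against 754 to 1358 at P3, and that of oligodendrocyte precursor markers was 134 to 318 at P21, against 360 to 453 at P3. Among the precursor markers Pdgfra and Cspg4 fell and Sox10 rose. Astrocyte markers summed to 5093 to 6453 at P21, inside the 4502 to 9401 at P3, with 2 of the 7 tested higher and 2 lower at P21. Of 3 tested markers of cerebellar granule cells 1, Gabra6, was higher at P21 and 2 were not called. Gabra6 averaged 7.90 ± 1.75 at P21 and 3.42 ± 0.56 at P3. Granule cell markers summed to 1298 to 3319 at P21, against 1331 to 1912 at P3. The 6 tested microglia markers were not called, and of 5 tested endothelium and vessel wall markers 1 was higher and 1 lower at P21. No marker of any list was at an intensity of 0 on the 15 arrays. The 2 sets of P8 arrays also differed in markers. In P8 replicates 5 to 9 astrocyte markers summed to 11055 to 25561, against 4368 to 7248 in P8 replicates 1 to 4. Microglia markers summed to 600 to 708 against 152 to 234. Of these 8 genes 4 averaged under a level of 4 on the 15 arrays. None of these sums was scaled for the higher median intensity of P8 replicates 5 to 9. Among astrocyte markers Gja1 (mean level 13.1 against 10.9), Aqp4 (12.1 against 10.2), Gfap, Aldh1l1 and Slc1a2 were higher there. Slc1a3 differed little (9.73 against 9.63), and S100b was lower (7.16 against 9.60). Oligodendrocyte markers were lower, at 552 to 2359 against 2537 to 4542. The sums of excitatory neuron markers overlapped, at 6333 to 12839 against 8180 to 10996, but single genes moved in both directions. Mean levels in P8 replicates 5 to 9 were lower for Calb2 (7.29 against 9.77), Kcna1 (5.05 against 8.02) and Scn4b (7.72 against 9.68). They were also lower for Pvalb, Kcna2 and Slc17a6, and higher for Snap25 (12.4 against 11.5), Slc17a7 (7.77 against 6.73) and Syt2 (6.07 against 5.28). The part of other cell types in the channel results was not tested.

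Each age was compared by limma over all 15650 probe sets above a level of 4 in at least 5 of the 15 arrays, with adjusted p from Benjamini-Hochberg over all of them and calls under 0.05. Of the 11 channel probe sets 10 passed that filter, and the Kcnn3 probe set, above 4 on 1 array, did not. Between P21 and P3, 7 of the 10 were called, 3 higher and 4 lower, in 5 of the 6 genes. In that comparison 39.1% of all tested probe sets were called, 20.1% higher and 19.0% lower. Between P8 and P3, 3 of the 10 were called, beside 15.6% of all tested probe sets. Of these 3, 2 were higher, beside 7.81% of all, and 1 was lower, beside 7.75%. Between P21 and P8, 1 of the 10 was called, a fall, beside 16.7% of all tested in either direction and 8.42% lower, so this interval gave no larger share among the channels than on the array as a whole. The median difference of the 10 was -0.12 for P21 against P3, beside 0.024 over all tested probe sets, which mixes rises and falls.

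**Figure D1:**
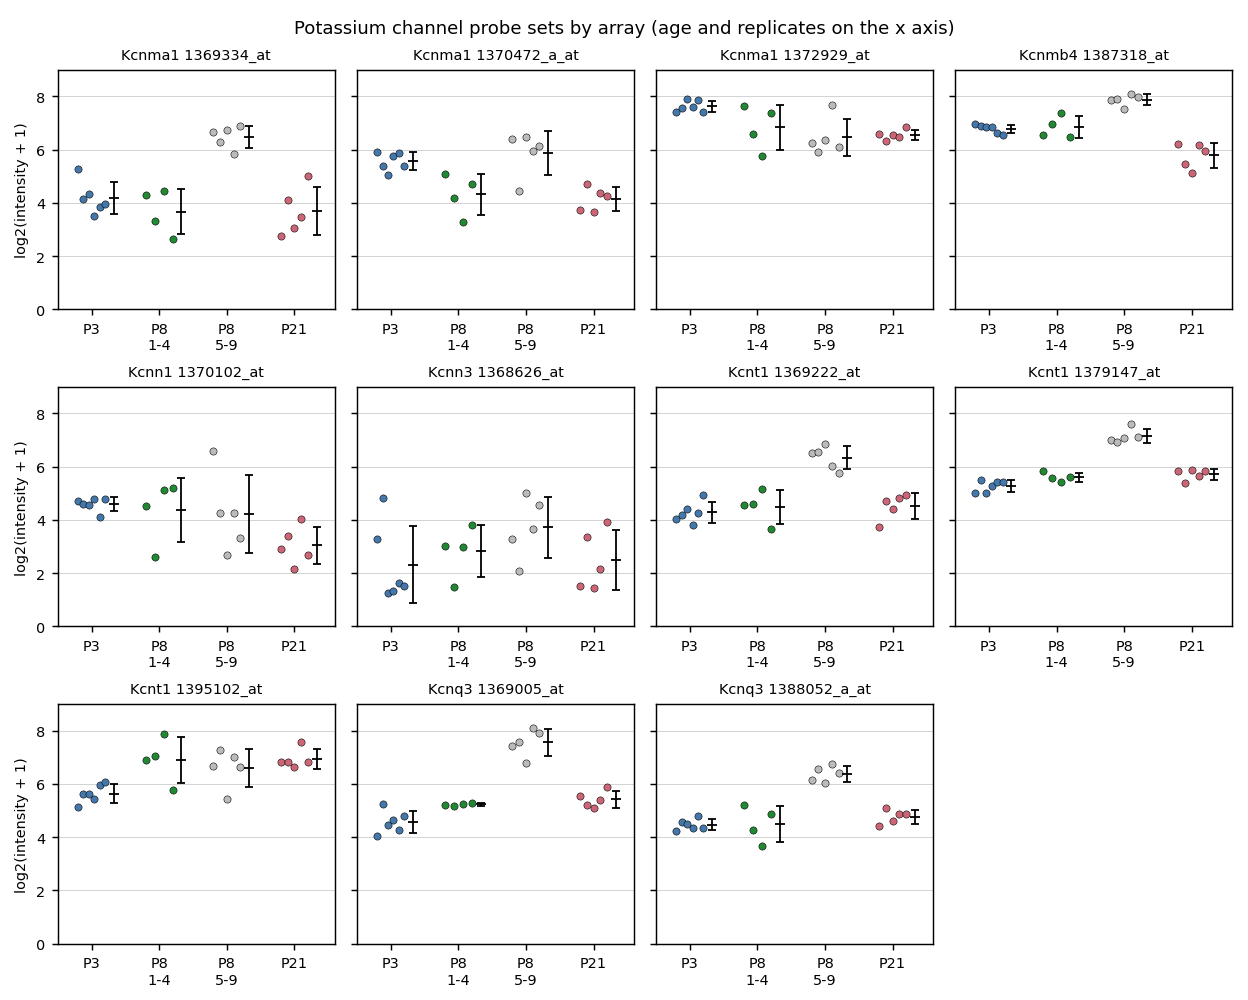
Levels, log2(intensity + 1), of the 11 channel probe sets on the y axis, 1 point per array, with ages and the 2 sets of P8 replicates on the x axis and bars for mean ± SD (n = 6, 4, 5 and 5 arrays). Kcnma1 1370472_a_at and 1372929_at, Kcnmb4 and Kcnn1 sit lower at P21 than at P3 without overlap, Kcnt1 1395102_at sits higher, and P8 replicates 5 to 9 stand above the other P8 arrays for most probe sets.

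The BK pore gene Kcnma1 fell with age on 2 of its 3 probe sets. On 1372929_at, the brightest of them, the levels at P21 were 6.57, 6.33, 6.53, 6.46 and 6.86, against a lowest of 7.39, a median of 7.58 and a highest of 7.91 at P3. Every P21 array lay below every P3 array, as for 13.6% of all tested probe sets. The means were 6.55 ± 0.20 at P21 (SD, n = 5) and 7.62 ± 0.22 at P3 (n = 6), a difference of -1.07 ± 0.27 (limma SE, adjusted p = 0.00509), or 0.475 times the P3 level. P8 replicates 1 to 4 spread widely on this probe set, at 7.64, 6.57, 5.75 and 7.36, so that replicate 1 lay within the P3 range, replicate 4 just below it and replicate 3 below all P21 arrays. Their mean of 6.83 ± 0.85 differed by -0.79 ± 0.28 from P3 (adjusted p = 0.0721), which missed the threshold. Without P8 replicate 1 or without P8 replicate 4 this difference was called (adjusted p = 0.0183 and 0.0427). In the other 13 fits without 1 array it was not, with an adjusted p of up to 0.209.

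The second Kcnma1 probe set, 1370472_a_at, was lower in P8 replicates 1 to 4 than at P3. Its levels were 5.08, 4.19, 3.28 and 4.69 in P8 replicates 1 to 4, against a lowest of 5.06, a median of 5.57 and a highest of 5.90 at P3. Only P8 replicate 1 reached into the P3 range. The means were 4.31 ± 0.78 at P8 (n = 4) and 5.56 ± 0.33 at P3 (n = 6), a difference of -1.25 ± 0.31 (adjusted p = 0.0151), or 0.420 times. At P21 the levels were 3.73, 4.69, 3.66, 4.35 and 4.26, all below P3, with a mean of 4.14 ± 0.44 and a difference from P3 of -1.42 ± 0.29 (adjusted p = 0.00133), or 0.373 times. Between P21 and P8 the difference was -0.17 ± 0.32 (adjusted p = 0.760), within the spread of the arrays. A fit that also held P8 replicates 5 to 9 gave an adjusted p of 0.0542 for P21 against P3, and in it P8 minus P3 was -0.38 (adjusted p = 0.489). With P8 replicates 5 to 9 as the P8 group this Kcnma1 difference was 0.31 (adjusted p = 0.418), of the opposite sign.

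The third Kcnma1 probe set, 1369334_at, was dim and gave no call. It exceeded a level of 4 on 7 of the 15 arrays, and its means were 4.17 ± 0.61 at P3, 3.67 ± 0.84 in P8 replicates 1 to 4 and 3.68 ± 0.90 at P21. The P21 and P3 groups overlapped, with a difference of -0.49 ± 0.43 (adjusted p = 0.392).

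Kcnmb4, the beta4 subunit of neuronal BK channels, fell between P8 and P21. Its single probe set, 1387318_at, read 6.21, 5.44, 5.13, 6.17 and 5.94 at P21, against 6.56, 6.95, 7.37 and 6.48 in P8 replicates 1 to 4. No P21 array reached the lowest P8 array. The means were 5.78 ± 0.47 at P21 (n = 5) and 6.84 ± 0.41 at P8 (n = 4), a difference of -1.06 ± 0.24 (adjusted p = 0.00683), or 0.479 times. Kcnmb4 was the single channel probe set called between P21 and P8, and the single one whose P21 and P8 groups did not overlap, as those of 6.74% of all tested probe sets did downward. P3 arrays had a lowest level of 6.56, a median of 6.85 and a highest of 6.95, and P8 differed from P3 by 0.06 ± 0.23 (adjusted p = 0.891). P21 lay below P3 with no overlap, at 0.499 times (-1.004 ± 0.21, adjusted p = 0.00179).

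Whether a probe set changed more in one interval than in the other was tested directly, as the P21 minus P8 difference less the P8 minus P3 difference. None of the 10 channel probe sets was called in this limma contrast, in which 4.41% of all tested probe sets were, and 1 had an unadjusted p under 0.05. That 1 was Kcnmb4, with -1.12 ± 0.41 (adjusted p = 0.129). Kcnma1 1370472_a_at had 1.08 ± 0.56 (adjusted p = 0.279) and Kcnt1 1395102_at had -1.22 ± 0.58 (adjusted p = 0.234). No test compared the timing of Kcnma1 with that of Kcnmb4.

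**Figure D2:**
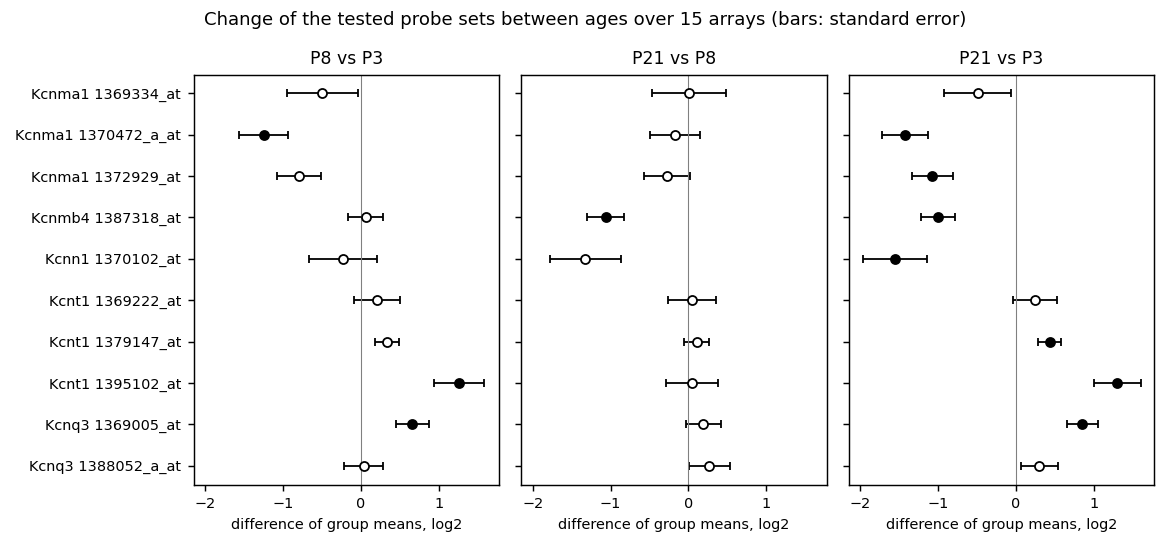
Differences of group means in log2 (x axis) for the 10 tested channel probe sets (y axis) in 3 comparisons, with limma standard errors as bars and filled points where the adjusted p was under 0.05. Filled points number 3 for P8 vs P3, 1 for P21 vs P8 and 7 for P21 vs P3, where Kcnma1, Kcnmb4 and Kcnn1 lie left of 0 and Kcnt1 and Kcnq3 right of it.

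Kcnn1, the SK1 channel gene, was lowest at P21. Probe set 1370102_at read 2.93, 3.39, 2.17, 4.02 and 2.70 at P21, against a lowest of 4.10, a median of 4.66 and a highest of 4.80 at P3. The groups were apart, P21 replicate 4 and P3 replicate 5 being nearest to each other. The means were 3.04 ± 0.70 at P21 (n = 5) and 4.60 ± 0.26 at P3 (n = 6), a difference of -1.55 ± 0.41 (adjusted p = 0.00777), or 0.340 times. With all 20 arrays in the fit this difference was the same, with an SE of 0.55 (adjusted p = 0.0680). P8 replicates 1 to 4 read 4.54, 2.61, 5.11 and 5.21, with replicate 2 far below the others. P21 minus P8 was -1.32 ± 0.46 (adjusted p = 0.0606), and without P8 replicate 2 it was called (adjusted p = 0.00201), as it was without P21 replicate 4 (adjusted p = 0.0321). In the other 13 fits without 1 array it was not called, with an adjusted p of up to 0.163. At levels this low the pseudocount of 1 understates a change, and a mean under 4 at P21 lies under the filter's own limit.

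Kcnn3, the SK3 channel gene, stayed near the bottom of the scale on 1368626_at. P3 arrays had a lowest level of 1.26, a median of 1.58 and a highest of 4.83, P8 replicates 1 to 4 read 3.02, 1.49, 2.98 and 3.82, and P21 arrays read 1.54, 3.38, 1.43, 2.17 and 3.93. The median P3 array had it at the 9.57th percentile of all probe sets, the median P8 array at 23.8 and the median P21 array at 15.4. The main fit tested no comparison for Kcnn3, which the filter left out. It entered only a setting without that filter and a pair test given below.

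The sodium-activated channel gene Kcnt1 rose early on its brightest probe set. On 1395102_at the levels were 6.88, 7.06, 7.87 and 5.78 in P8 replicates 1 to 4, against a lowest of 5.13, a median of 5.62 and a highest of 6.08 at P3. Of the P8 arrays 3 lay above every P3 array and replicate 4 lay inside the P3 range. The means were 6.90 ± 0.86 at P8 (n = 4) and 5.64 ± 0.34 at P3 (n = 6), a difference of 1.26 ± 0.32 (adjusted p = 0.0164), or 2.39 times. At P21 the levels were 6.82, 6.83, 6.64, 7.57 and 6.83, all above P3 as for 15.1% of all tested probe sets, with a mean of 6.94 ± 0.36 and a difference from P3 of 1.30 ± 0.30 (adjusted p = 0.00311), or 2.46 times. P21 and P8 differed by 0.04 ± 0.33 (adjusted p = 0.949), so the P21 level was not distinguished from that at P8.

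The 2 other Kcnt1 probe sets moved less. On 1379147_at the levels were 5.85, 5.38, 5.86, 5.64 and 5.83 at P21, against a lowest of 5.00, a median of 5.35 and a highest of 5.51 at P3. P21 replicate 2 overlapped the P3 range. The difference was 0.44 ± 0.15 (adjusted p = 0.0277), or 1.35 times, with means of 5.71 ± 0.21 at P21 and 5.28 ± 0.22 at P3. The call ended without P3 replicate 1 or 3 or without P21 replicate 1, 3 or 5 (adjusted p 0.0572 to 0.0663). It also ended with all 20 arrays (adjusted p = 0.546) and with P8 replicates 5 to 9 as the P8 group (adjusted p = 0.0870). On 1369222_at the means were 4.28 ± 0.38 at P3, 4.49 ± 0.63 at P8 and 4.53 ± 0.48 at P21, and P21 minus P3 was 0.25 ± 0.28 (adjusted p = 0.515). The 3 probe sets of Kcnt1 thus shared the sign of the P21 minus P3 difference and disagreed on its size.

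Kcnq3, the M-channel subunit, was higher on 1 of its 2 probe sets. On 1369005_at the levels were 5.22, 5.18, 5.24 and 5.29 in P8 replicates 1 to 4, against a lowest of 4.04, a median of 4.54 and a highest of 5.24 at P3. The 4 P8 arrays were nearly equal, and P3 replicate 2 alone of the P3 arrays reached them. The means were 5.23 ± 0.04 at P8 (n = 4) and 4.57 ± 0.42 at P3 (n = 6), a difference of 0.66 ± 0.21 (adjusted p = 0.0482), or 1.58 times. This call was lost in 12 of the 15 fits that each left out 1 array, where the adjusted p went up to 0.0975, and in 6 of 11 other settings. At P21 the levels were 5.55, 5.21, 5.09, 5.39 and 5.89, with a mean of 5.42 ± 0.31 and a difference from P3 of 0.85 ± 0.20 (adjusted p = 0.00354), or 1.80 times, although the groups overlapped at P3 replicate 2. With all 20 arrays in the fit the P21 minus P3 difference was the same, with an SE of 0.53 (adjusted p = 0.363). With P8 replicates 5 to 9 as the P8 group it stayed called. On the other probe set, 1388052_a_at, the means were 4.47 ± 0.21 at P3, 4.50 ± 0.68 at P8 and 4.77 ± 0.26 at P21, and P21 minus P3 was 0.30 ± 0.23 (adjusted p = 0.331).

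P8 replicates 5 to 9 gave another picture for several of the same probe sets. Kcnq3 1369005_at read 7.43, 7.59, 6.78, 8.11 and 7.91 on these arrays, a mean 2.33 above that of P8 replicates 1 to 4. Its median percentile among all probe sets was 84.6 in P8 replicates 5 to 9 and 55.2 in P8 replicates 1 to 4, so the gap held in rank as well as in level. Kcnma1 1369334_at was higher by 2.80 and 1370472_a_at by 1.56, Kcnt1 1369222_at by 1.85 and 1379147_at by 1.54, and Kcnmb4 by 1.03, with levels of 7.88, 7.88, 7.53, 8.08 and 7.96. The 2 brightest probe sets of the pore genes did not share this. Kcnma1 1372929_at differed by -0.37 and Kcnt1 1395102_at by -0.30 between the 2 sets of P8 arrays. In rank both were lower in P8 replicates 5 to 9. The median percentile of Kcnma1 1372929_at was 54.4 there, against 76.7 in P8 replicates 1 to 4. For Kcnt1 1395102_at it was 64.8 against 76.9. Kcnn1 read 6.59, 4.25, 2.70, 4.27 and 3.31 in P8 replicates 5 to 9, with a mean 0.14 below P8 replicates 1 to 4. Its median percentile was 22.2 in P8 replicates 5 to 9 and 48.1 in P8 replicates 1 to 4.

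Whether pairs of channels changed unequally was tested on the difference between them within each array, for the brightest probe set of each gene. Of 6 pairs fixed for this test, 3 could be run. Kcnq3 minus Kcnma1 was -1.13 ± 0.18 at P21 (SD, n = 5), with a range of -1.44 to -0.98, and -3.05 ± 0.50 at P3 (n = 6), with a range of -3.57 to -2.33. The P21 and P3 ranges did not meet, and the difference of 1.92 had a two-sided exact permutation p of 0.00433, the smallest that 5 against 6 arrays can give, or 0.0130 adjusted over the 3 pairs. Kcnmb4 minus Kcnma1 was -0.77 ± 0.45 at P21 and -0.84 ± 0.29 at P3, a difference of 0.069 (exact permutation p = 0.766, n = 5 and 6). At these ages the BK beta4 and pore subunits were thus not shown to have changed by different amounts, while Kcnq3 and Kcnma1 were. In P8 replicates 1 to 4, Kcnmb4 minus Kcnma1 was -1.08, 0.38, 1.62 and -0.88, a spread wider than at either other age. Replicate 3, at 1.62, had the lowest median intensity of the 15 arrays (23.8). Its 3′ to 5′ Gapdh difference of 3.86 was the highest of P8 replicates 1 to 4, and the part of either was not tested. Kcnn1 minus Kcnn3 was 0.55 ± 1.21 at P21 and 2.28 ± 1.45 at P3, a difference of -1.73 that missed the threshold (exact permutation p = 0.0736, n = 5 and 6, adjusted p = 0.110), and Kcnn3 was itself under the filter.

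**Figure D3:**
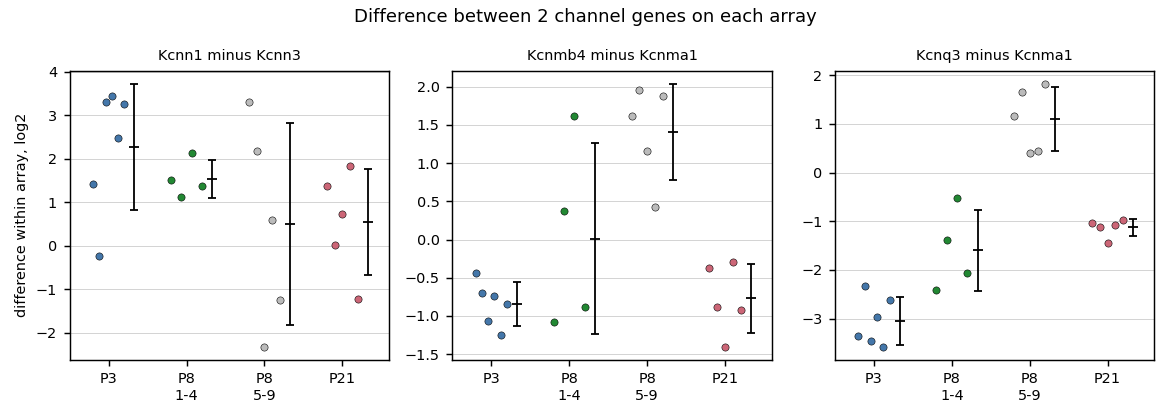
Difference in level between 2 channel genes on the same array, in log2 (y axis), by age and P8 replicates (x axis), with mean ± SD beside the points. Kcnq3 minus Kcnma1 lies at -1.44 to -0.98 on the P21 arrays, above all P3 arrays at -3.57 to -2.33, whereas Kcnmb4 minus Kcnma1 overlaps between these ages.

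Other subunits of the same families were counted from a list of 18 genes, of which 10 were measured and 6 tested. Between P21 and P3, 1 fell and 5 were not called, beside 19.0% lower and 39.1% called in either direction among all tested probe sets, with a median difference of 0.035. The gene that fell was Kcnq5, a KCNQ subunit known from rodents in the calyx of Held terminal itself. On 1379510_at Kcnq5 read 5.43, 5.47, 4.66, 5.80 and 4.73 at P21, against a lowest of 7.08, a median of 7.31 and a highest of 7.63 at P3, with no overlap. The difference was -2.09 ± 0.20 (adjusted p = 1.31e-06), larger than any among the channels above. With P8 replicates 1 to 4 it lay in the later interval. There P21 minus P8 was -1.83 ± 0.22 (adjusted p = 8.22e-05) and P8 minus P3 was -0.26 ± 0.21 (adjusted p = 0.433). P8 replicates 5 to 9 did not share the flat earlier course, with levels of 7.74 to 9.06, above every P3 array. With P8 replicates 1 to 4 the contrast between the intervals was called for this Kcnq5 probe set, at -1.58 ± 0.38 (adjusted p = 0.0313). A second, dim Kcnq5 probe set, 1391314_at, gave 0.57 ± 0.43 for P21 against P3 (adjusted p = 0.317), and the third, 1379212_at, too dim to be tested, averaged 3.67 at P21 and 2.27 at P3. The fall of Kcnq5 thus rests on 1 of 3 probe sets. Kcnq3 1369005_at and Kcnq5 1379510_at had opposite signs between P21 and P3.

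Regulators of these channels were counted from a list of 30 genes, of which 27 were measured and 24 tested. Between P21 and P3, 5 rose, 2 fell and 17 were not called, beside 20.1% higher and 19.0% lower among all tested probe sets, with a median difference of -0.045. Sptbn4, the beta-IV spectrin of axon initial segments and nodes where KCNQ channels are anchored, read 9.36, 8.62, 9.08, 9.03 and 8.51 at P21, against 6.33 to 7.26 at P3. Its difference was 2.30 ± 0.19 (adjusted p = 5.27e-07), while Ank3, the ankyrin G gene of the same scaffold, had -0.15 ± 0.36 (adjusted p = 0.770). The list also held enzymes that make or cleave PIP2, and they did not move as one. Pip5k1b, a phosphatidylinositol phosphate kinase, rose by 1.96 ± 0.19 (adjusted p = 1.38e-06), and Pi4ka, which makes its substrate, rose by 0.97 ± 0.21 (adjusted p = 0.00189). Plcb1, the phospholipase C beta1 that cleaves PIP2, averaged 6.87 at P21 and 7.97 at P3, a difference of -1.10 ± 0.26 (adjusted p = 0.00390). Pip5k1a (0.33, adjusted p = 0.107), Pip5k1c (-0.14, adjusted p = 0.622) and Plcb4 (0.25, adjusted p = 0.348), of the same enzyme families, were not called.

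The remaining called regulators act through phosphorylation, channel turnover and calcium sensing. Prkaca, a catalytic subunit of protein kinase A, rose by 1.07 ± 0.13 between P21 and P3 (adjusted p = 1.57e-05). Crbn, the cereblon gene whose product is known to bind the BK pore subunit, rose by 0.65 ± 0.14 (adjusted p = 0.00221). Hpca, the calcium sensor hippocalcin, averaged 7.15 at P3, 8.00 in P8 replicates 1 to 4 and 6.44 at P21. P8 replicates 5 to 9 did not share the high P8 level, with a mean of 7.25 and a range of 6.79 to 7.62. For Hpca P21 minus P3 was -0.71 ± 0.16 (adjusted p = 0.00253). For all 7 called regulators the P21 and P3 arrays did not overlap, which their choice by these calls favours. Among all tested probe sets, called or not, the share was 15.1% upward and 13.6% downward. In the fit with all 20 arrays, Pi4ka, Crbn, Hpca and Plcb1 were no longer called (adjusted p = 0.204, 0.0625, 0.0886 and 0.0934). With P8 replicates 5 to 9 as the P8 group they stayed called.

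**Figure D4:**
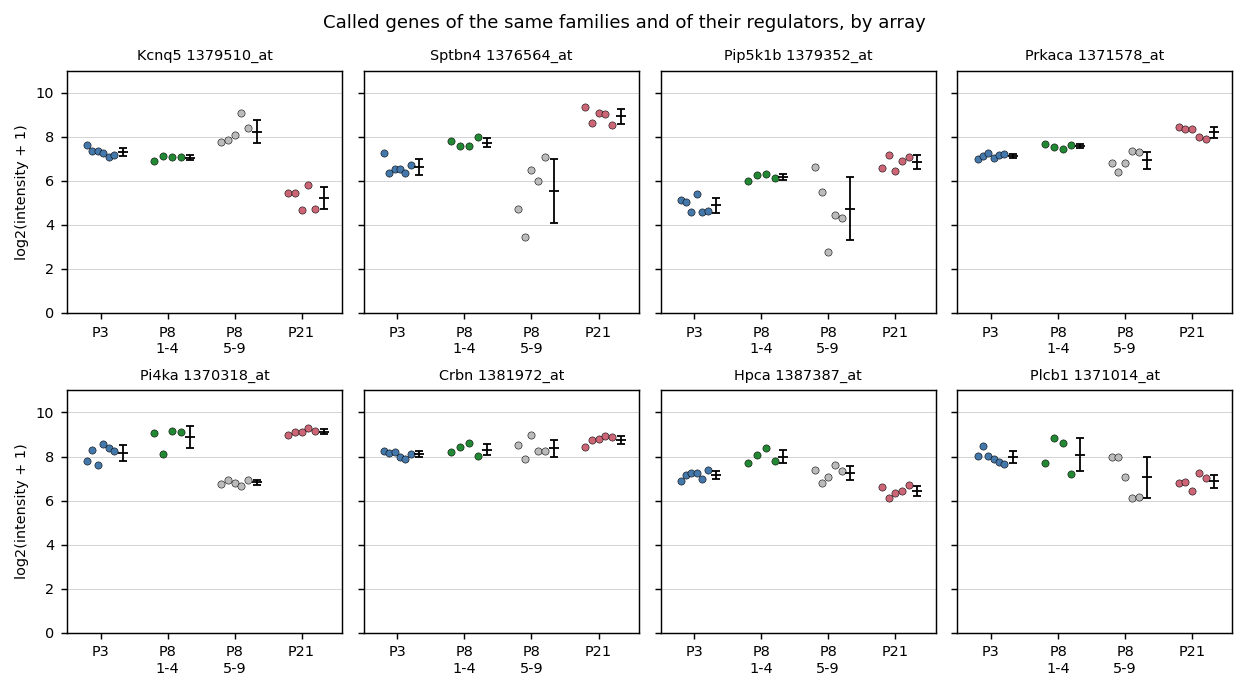
Levels, log2(intensity + 1), by array (y axis) and age (x axis) of Kcnq5 and the 7 regulators called between P21 and P3, with mean ± SD beside the points. At P21 Kcnq5, Hpca and Plcb1 lie below all P3 arrays, and Sptbn4, Pip5k1b, Prkaca, Pi4ka and Crbn lie above them.

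As a wider frame, 71 probe sets of 53 other potassium channel genes with Kcn symbols were tested between P21 and P3. Of these 23 rose and 10 fell, which is 46.5% called, beside 39.1% of all tested probe sets, and the median difference was 0.25, beside 0.024 over all.

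For each channel gene called between P21 and P3, the genes with the most similar course over the 15 arrays were found from the root mean square difference of levels after centring each probe set on its own mean. The probe sets nearest to Kcnma1 1372929_at were those of Mapre1, Nkapd1 and Cep128, at 0.225, 0.244 and 0.254, against a median of 0.778 over all probe sets. Nearest to Kcnmb4 were Zfp512b, Casd1 and Phf14, at 0.224, 0.226 and 0.226, against a median of 0.774. Nearest to Kcnt1 1395102_at were Camta2, Tstd1 and Sec11c, at 0.349, 0.356 and 0.363, against a median of 0.914. Each of these 9 genes had the same sign of P21 minus P3 as the channel it was matched to, which the choice by likeness favours. For Kcnq3 1369005_at the nearest were Des, Ssuh2 and Cox6c-ps1, at 0.215, 0.241 and 0.251, and for Kcnn1 they were Slc25a51l1, Hsf2 and Tgfa, at 0.498, 0.498 and 0.499. The matches to Kcnn1 were the least close of the 5, and its own spread around its mean over the 15 arrays was the widest at 0.964.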

How the data were processed

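For each of 20 arrays the authors deposited an intensity for every probe set, linear and scaled so that the mean without the lowest and highest 2% of probe sets is 100. GCRMA is named in the submitters' processing notes, without version or role, and which tool gave the linear intensities is not given in the labels or headers. The deposited intensities were turned into log2(intensity + 1), which understates changes of dim probe sets. Probe sets with 1 annotated gene and a log2 level above 4 in at least 5 of 15 arrays (15650) were fitted in R 4.3.3 by the lmFit and eBayes functions of limma 3.58.1, with P3, P8 and P21 in one model, and every adjusted p of a single probe set is from limma. P8 replicates 5 to 9 entered only alternative fits. The procedure was tested on simulated data. Symbols were updated through a RefSeq gene table (GRCr8), 20764 of 20832 by Entrez identifier.

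All member probe sets are named. From the lists of other subunits and regulators, genes called between P21 and P3 are named, up to 8 per list by smallest p, besides Ank3, Pip5k1a, Pip5k1c and Plcb4, chosen after their values were seen, and marker genes. The members and lists were chosen with earlier results of these data known. The labels call the samples biological replicates, and their numbers were checked as pairs: of 13 same-numbered pairs 0 had deviations correlated above 0.1 (range -0.0603 to 0.0776). No deviation shared by same-numbered arrays was thus seen, and the main fit used no pairing. The check cannot show whether same-numbered animals were handled together. The highest correlation between 2 arrays was 0.967, and none was taken for a duplicate. The number of arrays limits the precision.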

Additional observations from a re-analysis of the deposited data

Results flagged for a closer look

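In each group of 4 to 6 arrays the channel probe sets were searched for an array far from the others (Dixon's criterion at its 95% critical value), 44 groups in all, of which chance alone marks about 1 in 20. At 5 places 1 array stood out. Kcnt1 1395102_at had a level of 7.57 in P21 replicate 4, with the other P21 arrays at 6.64 to 6.83. Kcnn1 1370102_at had 4.10 in P3 replicate 5, with the other P3 arrays at 4.57 to 4.80. The other 3 lay among P8 replicates 5 to 9, which entered only the alternative fits. There Kcnma1 1370472_a_at had 4.44 in replicate 6, with the others at 5.96 to 6.45. Kcnma1 1372929_at had 7.66 in replicate 8, with the others at 5.92 to 6.37. Kcnt1 1379147_at had 7.60 in the same replicate 8, with the others at 6.93 to 7.11.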

How the results depend on the processing

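Besides the fit described, 12 other settings and 15 fits without 1 array each were run; pairs with Kcnn2 or Kcnt2 were not run. All 7 channel calls between P21 and P3 kept their direction in these settings. With all 20 arrays the differences of Kcnma1 1370472_a_at, Kcnn1, Kcnq3 1369005_at and Kcnt1 1379147_at were unchanged, and their SEs were larger. The number of calls between P21 and P3 was 3 with all 20 arrays and 6 with P8 replicates 5 to 9 as the P8 group. With a filter at log2 6 it was 3 of 3 tested, and without 1 array it was 6 to 7. Between P8 and P3 (3 calls) it was 6 with all 20 arrays, 8 with P8 replicates 5 to 9 as the P8 group, 1 with a replicate block and 2 to 3 without 1 array. Between P21 and P8 (1 call) it was 2 with a pseudocount of 16, 2 with quantile normalization, 2 with array weights, 7 with P8 replicates 5 to 9, and 1 to 2 without 1 array. The contrast of intervals (0 calls) gave 5 with all 20 arrays, 8 with P8 replicates 5 to 9 and 0 to 1 without 1 array (1 without P8 replicate 4). With all 20 arrays the median difference of all 17325 probe sets tested was 0.14 for P8 against P3 and -0.20 for P21 against P8, beside -0.017 and 0.055 with 15 arrays. The replicate block also ended the calls of Kcnt1 1395102_at between P8 and P3 (adjusted p = 0.0507) and of Kcnt1 1379147_at between P21 and P3 (0.0656), and that of Kcnq3 1369005_at between P8 and P3 (0.104).

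Apart from settings with P8 replicates 5 to 9, the reversed differences were ones that had not been called; the cause was not tested. For P8 against P3, Kcnma1 1369334_at was 1.06 with all 20 arrays and 2.30 with P8 replicates 5 to 9, Kcnma1 1370472_a_at 0.31 with P8 replicates 5 to 9, and Kcnmb4 -0.12 with array weights. For P21 against P8, all 20 arrays and P8 replicates 5 to 9 gave -1.55 and -2.79 for Kcnma1 1369334_at, -1.10 and -2.14 for Kcnq3 1369005_at, -0.77 and -1.61 for Kcnq3 1388052_a_at, -0.99 and -1.81 for Kcnt1 1369222_at, and -0.75 and -1.43 for Kcnt1 1379147_at, while P8 replicates 5 to 9 gave 0.091 for Kcnma1 1372929_at. Kcnma1 1369334_at was -0.077 with quantile normalization, -0.0045 with medians subtracted and -0.11 with the replicate block, Kcnt1 1369222_at -0.029 with quantile normalization and -0.025 with the block, and Kcnq3 1388052_a_at -0.062 with array weights.

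Without 1 array each, P8 against P3 spanned -0.12 to 0.18 for Kcnmb4, -0.51 to 0.36 for Kcnn1, -0.21 to 0.31 for Kcnq3 1388052_a_at and -0.022 to 0.49 for Kcnt1 1369222_at. P21 against P8 spanned -0.33 to 0.26 for Kcnma1 1369334_at, -0.52 to 0.084 for Kcnma1 1370472_a_at, -0.011 to 0.51 for Kcnq3 1388052_a_at, -0.24 to 0.27 for Kcnt1 1369222_at and -0.33 to 0.37 for Kcnt1 1395102_at. Between P21 and P3, Kcnmb4 minus Kcnma1 spanned -0.051 to 0.23 (-0.0081 with the mean over probe sets), and Kcnn1 minus Kcnn3 spanned -2.23 to -1.29, past the threshold without P3 replicate 2 (exact permutation test, adjusted p = 0.0238). A dim probe set such as Kcnn3 or Kcnma1 1369334_at limits what these arrays can show.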
